A study of Mus musculus with 3 samples.

Results

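The transcripts described here are those of 10 dual-specificity phosphatases that act on, or are linked to, MAP kinases: Dusp1, Dusp2, Dusp3, Dusp4, Dusp5, Dusp6, Dusp7, Dusp10, Dusp16 and Dusp22. They were chosen by name, with earlier results of these data known. All 10 were found among the 45761 gene symbols present in both deposited tables, each as a single row. RNA was sequenced from RAW264.7, a mouse line of macrophage-like cells that grew out of an Abelson murine leukaemia virus tumour. The groups were low density cells, high density cells, and high density cells treated with lipopolysaccharide (LPS), a bacterial cell wall component, at 500 ng/ml for 24 h, begun 24 h after seeding. All 3 libraries came from this 1 line without any genetic change named in the labels, and with 1 library in each group, differences have no replicate check and no p-value was computed. High density was set against low density in one table, and LPS against untreated high density cells in the other. Levels are FPKM, a fragment count scaled to transcript length and library size, as Cuffdiff gave them, and they can be compared between genes because they are per length.

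MAP kinases (ERK, JNK and p38) are switched on by phosphorylation of a threonine and a tyrosine, and dual-specificity phosphatases remove both phosphates. Many of these phosphatase genes are themselves induced by the kinases they turn off, which makes them negative feedback regulators. In macrophages LPS activates all these kinases through Toll-like receptor signalling, and mice lacking Dusp1 overproduce inflammatory cytokines after LPS. Dusp1, Dusp2, Dusp4 and Dusp5 encode inducible nuclear enzymes, Dusp6 and Dusp7 cytoplasmic enzymes that prefer ERK, and Dusp10 and Dusp16 enzymes that prefer JNK and p38. Dusp3 and Dusp22 encode small atypical members that lack the amino-terminal MAP kinase binding domain of the others.

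Of the 10 genes, 9 have a promoter entry in the RefSeq table (build GRCm38.p6) of windows from 250 bases before to 50 bases from a transcript start on. The table has no entry for Dusp4. For 6 of the 9 this is the outer start of the RefSeq gene, while the windows of Dusp16, Dusp3 and Dusp7 are built on another start, which lies 14435, 2222 and 72 bases inside the gene. The windows of 3 genes whose transcripts were higher with LPS, Dusp1, Dusp5 and Dusp16, and that of Dusp6, the only one of the 10 past 2-fold between densities, are shown 5′ to 3′ on the gene's strand. Capitals mark the cAMP response element (CRE) TGACGTCA or its core TGACG (read on either strand) in Dusp1 and Dusp16, and CArG boxes, the binding motif of serum response factor, in Dusp5. The Dusp5 window also holds a core on the opposite strand, 55 bases before the start, which is left in lower case. The windows are chr17:26508423-26508722 (minus strand), chr19:53528895-53529194 (plus), chr6:134792579-134792878 (minus) and chr10:99262981-99263280 (plus), in that order.
Dusp1: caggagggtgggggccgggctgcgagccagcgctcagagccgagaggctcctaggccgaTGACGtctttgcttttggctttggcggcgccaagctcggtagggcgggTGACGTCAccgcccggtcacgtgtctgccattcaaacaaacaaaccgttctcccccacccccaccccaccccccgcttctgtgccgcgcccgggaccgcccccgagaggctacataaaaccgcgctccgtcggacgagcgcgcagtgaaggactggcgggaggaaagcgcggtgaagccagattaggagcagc
Dusp5: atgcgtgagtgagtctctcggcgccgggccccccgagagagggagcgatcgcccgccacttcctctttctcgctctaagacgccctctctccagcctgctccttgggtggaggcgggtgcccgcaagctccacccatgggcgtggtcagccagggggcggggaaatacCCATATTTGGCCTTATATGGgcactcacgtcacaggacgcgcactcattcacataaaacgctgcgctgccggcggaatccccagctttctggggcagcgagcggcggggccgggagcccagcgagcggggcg
Dusp16: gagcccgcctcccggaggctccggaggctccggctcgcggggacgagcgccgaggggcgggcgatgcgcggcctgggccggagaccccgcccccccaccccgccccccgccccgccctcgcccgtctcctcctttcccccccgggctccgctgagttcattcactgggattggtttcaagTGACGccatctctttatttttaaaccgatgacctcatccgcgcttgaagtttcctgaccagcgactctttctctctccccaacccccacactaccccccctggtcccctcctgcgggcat
Dusp6: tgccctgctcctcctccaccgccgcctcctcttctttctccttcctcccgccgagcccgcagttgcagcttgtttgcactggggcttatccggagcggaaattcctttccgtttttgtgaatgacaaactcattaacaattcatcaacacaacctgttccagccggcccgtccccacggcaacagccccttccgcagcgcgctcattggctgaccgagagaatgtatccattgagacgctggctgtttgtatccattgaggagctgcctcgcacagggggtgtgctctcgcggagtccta
The full element TGACGTCA, which holds overlapping cores on its strands, was found in the Dusp1 window alone among the 9, starting 143 bases before the start that the window is built on. It is present in 1.79% of the 32851 promoter windows of this length in the table. Cores TGACG were found in 4 of the 9 windows, those of Dusp1, Dusp2, Dusp5 and Dusp16, against 20.8% of all windows. In Dusp1 a separate core starts 191 bases before that start, and in Dusp16 the core starts 70 bases before the inner start of its window. The Dusp5 window holds a pair of adjacent CArG boxes, CCATATTTGG and CCTTATATGG, starting 82 and 72 bases before the start, and 1.63% of all windows hold at least 1. The AP-1 motif TGANTCA was in none of the 9 windows (7.81% of all), the GC box GGGCGG was in 8 (35.7% of all), all but Dusp6, and the NF-kB motif was in that of Dusp22 (8.46% of all). The window of Dusp10, also higher with LPS, is not printed above and held GC boxes but no match to the other motifs. The 6 motifs were searched on both strands, and a match or its absence in these windows describes letters only.

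The libraries carried the markers of their labelled cell type: 9 of 10 macrophage markers were at 1 FPKM or more in both tables, Mertk being listed at 0. Markers of epithelial cells were all listed at 0, those of lymphocytes, fibroblasts and dendritic cells were all under 1 FPKM, and 2 of 6 neutrophil markers reached 1 FPKM, with summed levels of 3.43 FPKM at low and 2.92 at high density, and of 2.66 without and 9.05 with LPS. The tables were scaled separately. The high density library is part of both, and the 10 genes were lower by 8.13% to 16.1% in its LPS table values than in its density table values. Ratios compare columns of the same table. They are given as plain ratios of FPKM, or as log2 ratios after adding 1 to each FPKM, which understates changes of low genes. A gene counted as measured at 1 FPKM or more in either library, and as higher or lower at 2-fold or more on the second scale. Reads were not counted here. Fragments were estimated from the step at which the lowest FPKM values gather, about 16.7, 16.95, 18.99 and 14.7 fragments per FPKM and kilobase for low density, high density (density table), high density (LPS table) and LPS. The 95% intervals below rest on these estimates, are approximate and cover counting error only.

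Without LPS, Dusp3 and Dusp4 were the most abundant of the 10 transcripts. Dusp3 (VHR, chromosome 11, minus strand, 101971039 to 101987013) was 41.7 FPKM in low density cells and 40.9 in high density cells. Dusp4 (chromosome 8, plus strand, 34807223 to 34821954) was 24.2 and 24.4 FPKM. At low density Dusp7 (13.7 FPKM, 95% counting interval 12.7 to 14.7) and Dusp22 (12.4, 10.9 to 14.1) followed, and these neighbours did not differ beyond counting error. Then came Dusp2 at 8.32 FPKM (7.28 to 9.50) and Dusp6 at 6.91 (6.18 to 7.72). Dusp16 at 6.77 (6.15 to 7.42) and Dusp1 at 5.60 (4.82 to 6.46) were next. The intervals of Dusp6 and Dusp16 overlapped each other and those of Dusp2 and Dusp1. In this group only Dusp2 and Dusp1 had intervals that did not overlap. Dusp5 at 1.87 and Dusp10 at 0.315 FPKM were the lowest. The order at high density kept Dusp3 and Dusp4 first and Dusp10 last, while Dusp6 moved from the sixth place to the ninth. Positions here and below are those of the loci in the density table, which can reach past the RefSeq gene. The RefSeq gene of Dusp4 spans 34807610 to 34819894. Those of Dusp6 and Dusp16 reach up to 99267489 and 134807063.

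**Figure D1:**
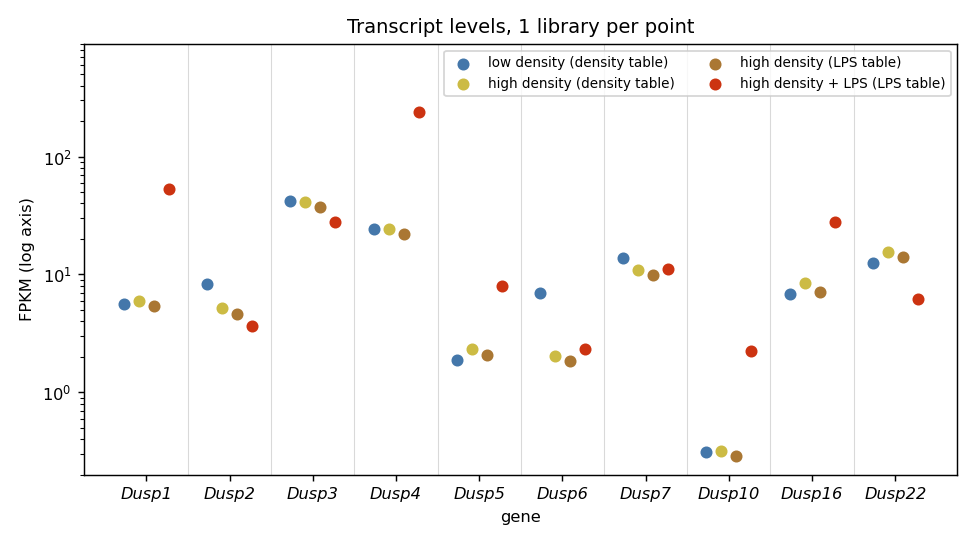
FPKM on a log axis of the 10 genes in each library, 1 point per gene and library, with the high density library shown as scaled in each table. Dusp4 with LPS, at 237 FPKM, is the highest point, Dusp6 separates the low density library (6.91 FPKM) from the high density one (2.04), and Dusp10 is under 0.35 FPKM in all untreated columns.

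The density comparison asked how expression differed in crowded cells. Of the 10 genes, 1 was at least 2-fold lower at high density, Dusp6, and 0 were higher. Over all 10903 genes measured, 0.899% were lower and 3.54% higher. Of the 10, 9 were measured, Dusp10 being under 1 FPKM in both libraries, and the median log2 ratio of the 9 was 0.011 against 0.013 for all genes measured. Equalising the summed FPKM of the libraries with the 20 highest genes left out moved the median of all genes to -0.20, and the higher genes among those past 2-fold from 79.8% to 51.6%. No direction is therefore given for members whose log2 ratio is smaller than that shift or moves close to 0 with it.

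Dusp6 (MKP-3, chromosome 10, plus strand, 99263231 to 99270899), the cytoplasmic ERK phosphatase whose transcript is a common readout of ERK activity, was 6.91 FPKM in low density cells and 2.04 in high density cells. The ratio was 0.295 (95% counting interval 0.233 to 0.372), from about 323 and 97 fragments, and the log2 ratio was -1.38. It ranked 31st from the lowest ratio among the 10903 genes measured. In the authors' deposited table Dusp6 has p = 0.00855 and q = 0.572 and is not called. In bulk RNA, fewer cells holding a transcript and less of it per cell cannot be told apart. The Dusp6 locus also holds the gene model Gm34921, which has a row of its own at 1.14 and 0.675 FPKM.

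Dusp7 (MKP-X, chromosome 9, plus strand, 106368560 to 106375724), the other cytoplasmic ERK phosphatase, was 13.7 and 11.0 FPKM, with a ratio of 0.805 (0.722 to 0.898). The summed level of this pair was 20.6 FPKM in the low and 13.05 in the high density library. Dusp6 made up 5.67% of the summed FPKM of the 10 genes in the former and 1.76% in the latter.

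Among the nuclear enzymes, Dusp2 (PAC1, chromosome 2, plus strand, 127336159 to 127338377), which is found mainly in leukocytes, was 8.32 and 5.24 FPKM, a ratio of 0.629 (0.508 to 0.781) that lay within 2-fold. Dusp1 (MKP1, chromosome 17, minus strand, 26505591 to 26508472), which prefers p38 and JNK, was 5.60 and 5.95 FPKM. Dusp5 (chromosome 19, plus strand, 53529144 to 53542417), an ERK-specific enzyme, was 1.87 and 2.32 FPKM. The intervals of the ratios of Dusp1 (0.868 to 1.31), Dusp4 (0.927 to 1.10) and Dusp5 (0.911 to 1.70) all included 1.

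The JNK and p38 phosphatase gene Dusp16 (MKP-7, chromosome 6, minus strand, 134715468 to 134821420) was 6.77 and 8.50 FPKM, with a ratio of 1.25 (1.11 to 1.42). Its locus also spans Gm36328 and 1700055D16Rik, which have rows of their own at or near 0. Dusp10 (MKP-5, chromosome 1, plus strand, 184034381 to 184075636) was 0.315 and 0.319 FPKM, about 15 fragments in each library, and at this depth a ratio between 0.449 and 2.16 could not be told from 1. The atypical gene Dusp22 (JKAP, chromosome 13, plus strand, 30660059 to 30711232) was 12.4 and 15.4 FPKM. With the rescaling above, the log2 ratios of Dusp16 and Dusp22 moved from 0.29 and 0.29 to 0.080 and 0.068, so neither is given a direction.

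**Figure D2:**
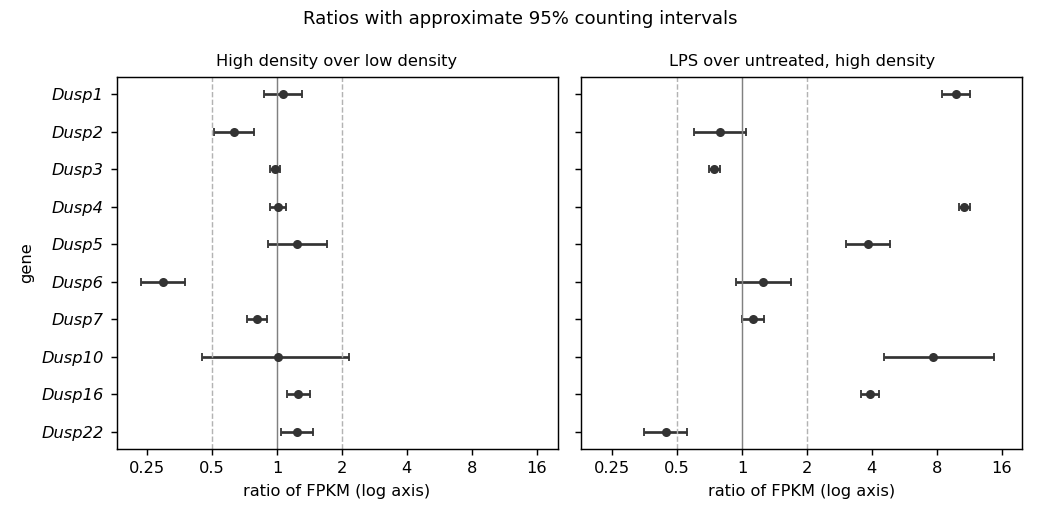
Plain ratios of FPKM on log axes for high over low density (left) and LPS over untreated (right), with approximate 95% counting intervals; the solid line marks no difference and the dashed lines 2-fold. Dusp6 alone lies past 2-fold on the left at 0.295, and Dusp4 and Dusp1 lie farthest right with LPS at 10.7 and 9.82.

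The LPS comparison asked what LPS changed at high density. Of the 10 genes, 5 were at least 2-fold higher with LPS (Dusp1, Dusp4, Dusp5, Dusp10 and Dusp16) and 1 lower (Dusp22). Over all 11001 genes measured, 8.6% were higher and 5.84% lower. The median log2 ratio of the 10 was 0.77, against 0.029 for all genes measured. Dusp10, under 1 FPKM without LPS, was measured only through the LPS library, and the other 9 genes were above 1 FPKM in both libraries of this table.

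Dusp4 (MKP-2), which acts on ERK and JNK in the nucleus, was 22.1 FPKM in untreated and 237 in LPS-treated cells. The ratio was 10.7 (10.1 to 11.4), from about 1149 and 9578 fragments, and the log2 ratio of 3.37 ranked 64th of 11001 genes. Dusp1 was 5.35 FPKM without LPS and 52.6 with it, a ratio of 9.82 (8.49 to 11.4), with a log2 ratio of 3.08 that ranked 78th. Between densities their ratios were 1.01 and 1.06. In the authors' deposited table they have q = 0.0999 for Dusp4 and q = 0.0744 for Dusp1 and are not called, while 0.341% of tested loci are. For density that share is 0.253%, and none of the 10 genes is called in either table.

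Dusp5 was 2.08 FPKM without LPS and 8.01 with it, a ratio of 3.85 (3.05 to 4.88). The remaining nuclear gene, Dusp2, was 4.63 and 3.66 FPKM, a ratio of 0.791 (0.598 to 1.04) whose interval includes 1. The nuclear enzymes summed to 34.2 FPKM in untreated and 302 in LPS-treated cells.

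The JNK and p38 phosphatase genes were both higher. Dusp16 was 7.13 and 28.0 FPKM, a ratio of 3.93 (3.56 to 4.33). Dusp10 was 0.291 and 2.24 FPKM, a ratio of 7.68 with a wide interval (4.55 to 14.7), since only about 15 fragments stood behind the untreated value. Even with LPS, Dusp10 remained the lowest of the 10 transcripts, next to Dusp6 at 2.32 FPKM, and the intervals of the pair overlapped (1.80 to 2.74 and 1.89 to 2.85).

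The cytoplasmic ERK phosphatase genes stayed within 2-fold. Dusp6 was 1.85 and 2.32 FPKM, a ratio of 1.25 (0.943 to 1.69), and Dusp7 was 9.88 and 11.1 FPKM, a ratio of 1.12 (0.999 to 1.27). The intervals leave room for a difference of up to 1.69-fold in Dusp6.

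Both atypical genes had ratios below 1 with LPS. Dusp22, linked to JNK signalling and in mouse T cells to the kinase Lck, was 14.1 FPKM without LPS and 6.23 with it, a ratio of 0.442 (0.353 to 0.554). Its log2 ratio of -1.06 lay just past the 2-fold threshold. Dusp3 was 37.6 and 28.0 FPKM, a ratio of 0.745 (0.702 to 0.790) that was within 2-fold.

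**Figure D3:**
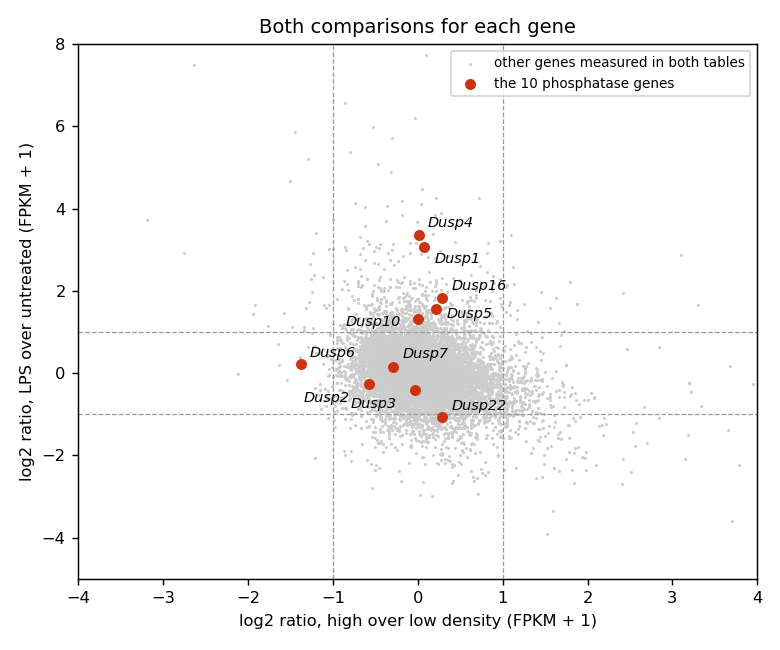
Log2 ratios (FPKM + 1) of high over low density (horizontal) and of LPS over untreated (vertical), with the 10 genes in red, the other genes measured in both tables in grey and dashed lines at 2-fold; 19 genes lie outside the axes. Dusp6 stands apart to the left near 0 on the LPS axis, while Dusp4 and Dusp1 stand above 3 with density ratios near 0; the axes share the high density library.

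The make-up of the phosphatase transcripts was dominated by Dusp3 and Dusp4 without LPS and by Dusp4 and Dusp1 with it. The 10 genes summed to 122 FPKM in low density cells and 116 in high density cells, and to 105 without and 379 with LPS. Most of that difference was Dusp4: without it the sums in the LPS table were 82.9 and 142 FPKM. Dusp4 made up 21.0% of the summed FPKM without LPS and 62.5% with it, and Dusp1 5.10% and 13.9%. Dusp3 went from the first place, with 35.8%, to the fourth, with 7.38%, level with Dusp16 at 28.0 FPKM each. The nuclear enzymes together were 32.8% of the sum in low density cells, 32.5% at high density in the LPS table and 79.5% with LPS. The atypical pair was 44.4% at low density, and 49.2% without and 9.02% with LPS. The cytoplasmic ERK pair was 16.9% and 11.2% in the density table, and 11.2% and 3.54% in the LPS table. Shares with LPS also fall because the sum is larger. In FPKM the cytoplasmic ERK pair was 11.7 without and 13.4 with LPS, and the atypical pair 51.7 and 34.2.

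**Figure D4:**
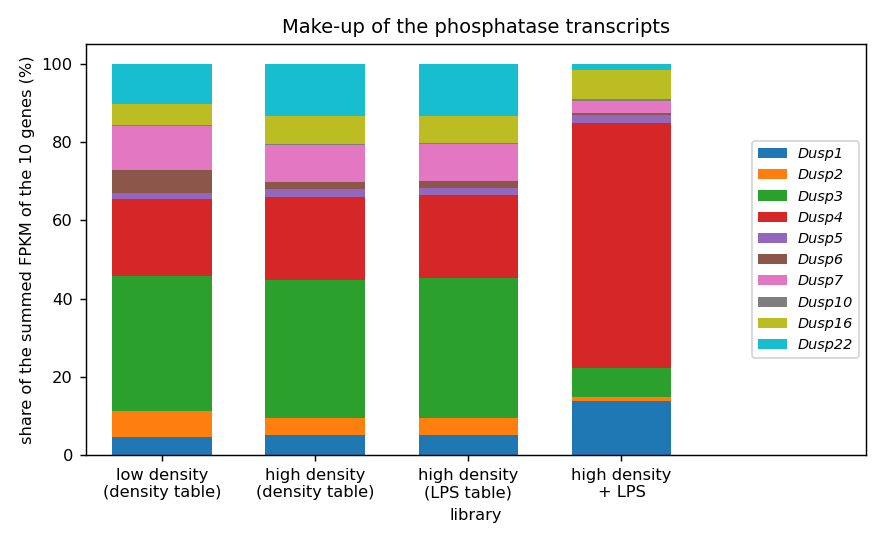
Share of the summed FPKM of the 10 genes taken by each gene, in percent, for each library and table. Dusp3 (green) is the largest share in the untreated columns and Dusp4 (red) takes 62.5% with LPS.

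Other dual-specificity phosphatases, 19 genes that do not belong to the 10, had 0 of 10 measured past 2-fold between densities, and 2 of 11 higher and 0 lower with LPS. The difference from the 10 genes was not tested. For this list and those below, the shares over all genes measured were 3.54% higher and 0.899% lower between densities. With LPS they were 8.6% and 5.84%. In lists this short a count of 0 is not far from these shares. The pair was Dusp8, which prefers JNK and p38, at 0.236 FPKM without and 5.13 with LPS, and Dusp14 (an atypical member) at 5.23 and 13.1. Dusp8 was measured only through the LPS library. Dusp9, a relative of Dusp6 and Dusp7, was listed at 0 in every library.

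The kinases that these enzymes act on were within 2-fold. Of 9 measured MAP kinase genes, 0 were past 2-fold in either comparison, with medians of -0.21 for density and 0.22 for LPS. Mapk3, which encodes an ERK kinase, was 40.4 FPKM in low density cells and 69.7 in high density cells, and 62.8 without and 62.05 with LPS in the other table. The JNK genes Mapk8 and Mapk9 were 8.84 and 12.4 FPKM in low density cells, 7.14 and 13.2 in high density cells, and, as scaled beside LPS, 6.56 and 12.8 without it and 9.27 and 12.8 with it. The p38 gene Mapk14, which has 2 rows, was 3.85 and 2.64 FPKM between densities and 2.40 and 2.41 without and with LPS. Mapkapk2, the kinase downstream of p38, was 219 and 248 FPKM, and 223 and 247.

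Upstream, 0 of 6 MAP2 kinase genes were past 2-fold between densities and 1 was lower with LPS, Map2k6, an activator of p38, at 2.99 and 0.150 FPKM. Among MAP3 kinases and adaptors, 1 of 21 was higher at high density, Map3k13 at 0.264 and 2.96 FPKM, and with LPS 2 of 21 were lower, among them Map3k13 at 2.71 and 0.323 FPKM. Map3k13 has 2 rows and was measured in both comparisons only through the high density library, which they share. Map2k6 was measured in the LPS comparison only through the untreated library. Map3k8 (TPL2), which links Toll-like receptors to ERK, was 3.21 and 5.70 FPKM. Of 10 kinases activated by MAP kinases, 1 was higher with LPS, Rps6ka2 at 0.899 and 6.09 FPKM, and 0 of 9 were past 2-fold for density. Scaffolds (6 measured for density and 5 for LPS) and other phosphatases of MAP kinases (7 in each) had 0 past 2-fold. Their medians were 0.36 and 0.044 for density and 0.52 and 0.39 for LPS.

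Transcripts that respond to ERK were set beside Dusp6. Between densities, 3 of 9 measured were lower and 1 higher, with a median of -0.57. Fos was 8.56 and 2.06 FPKM, the cyclin gene Ccnd1 75.9 and 35.4, and Fosl1, named after its value was seen, 1.90 and 0.403, while Ier3, with 3 rows, was 45.3 and 147. With LPS, 5 of 11 were higher and 1 lower, with a median of 0.74, and Dusp6 was at 0.22. The lower gene was Ier2, at 18.7 FPKM without and 7.05 with LPS. Within 2-fold, Egr3 and Ccnd1 had log2 ratios of -0.84 and -0.56. Ier2 and Egr3 were named after their values were seen. Myc was 0.690 and 5.01 FPKM, Fosl1 0.362 and 3.26, and Phlda1 2.27 and 9.15. In this comparison Myc and Fosl1, like Rps6ka2, were measured only through the LPS library. Between densities Fosl1 was measured only through the low density library. Etv5, named after its value was seen, was 9.66 and 5.26 FPKM between densities, and 4.78 and 11.1 with LPS. Feedback inhibitors of Ras and ERK signalling had 0 of 8 past 2-fold for density, and 1 of 7 higher with LPS, Nf1 at 4.19 and 9.43 FPKM. The Sprouty genes Spry2, Spry3 and Spry4 were listed at 0 in every library. Of the CREB, ATF, SRF and ternary complex factor genes, 0 of 10 and 0 of 11 were past 2-fold, with medians of -0.11 and 0.46.

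**Figure D5:**
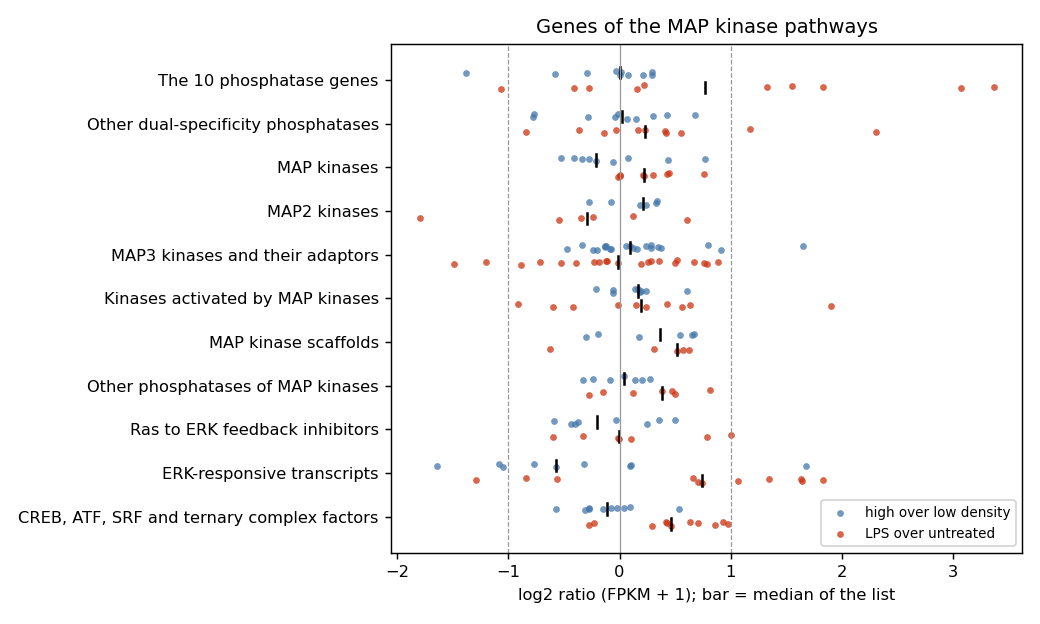
Log2 ratios (FPKM + 1) of the 10 phosphatase genes and of the measured members of 10 pathway lists, for high over low density (blue) and LPS over untreated (red), with the median of each list as a bar and dashed lines at 2-fold. With LPS, 5 of the 10 phosphatase genes, 5 of 11 ERK-responsive transcripts and 0 of 9 MAP kinase genes lie beyond 2-fold higher. The share of all genes measured is 8.6%. In each of the first 2 sets 1 gene lies beyond 2-fold lower, against 5.84% of all genes.

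For each of the 7 genes past 2-fold in either comparison, the nearest of 8573 genes at 5 FPKM or more in each table were found by Euclidean distance over the pair of log2 ratios, which share the high density library. Dusp4 lay nearest to the TNF receptor gene Tnfrsf1b (0.18 for density and 3.39 for LPS, distance 0.17) and to Wfdc17. Dusp1 lay nearest to Slpi, a protease inhibitor gene (0.041 and 2.89, distance 0.19), and to Grap. Dusp6 lay nearest to Id3, an inhibitor of basic helix-loop-helix factors (-1.38 and 0.39, distance 0.17), and to Slc39a14. The nearest to Dusp5 were Asns and Arap1, to Dusp16 Esd and Snx7, to Dusp10 Psmd11 and Sp110, and to Dusp22 Proser3 and Sun2, at distances from 0.014 to 0.11. The place of Dusp10 is set by the added 1 FPKM. Its log2 ratio for LPS was 1.33 although its plain ratio was 7.68, and it was not measured between densities. Its neighbours therefore do not show genes with a like plain ratio. With 1 library per group these neighbours describe these libraries only.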

How the data were processed

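RNA of 3 RAW264.7 libraries, 1 per group, was sequenced. Per the submitters' processing notes, the tools were Cuffdiff, TopHat2, FastQC and fastp, with GRCm38 and mm10 as builds. Their versions, the annotation, the strand setting and the scaling are not stated in the labels or tables. The authors deposited 2 tables of 49850 and 49971 rows with FPKM per library, and, per the file headers, their log2 fold change, p-value, q-value and test score from a test made without replicates. Only values credited to the authors' deposited table rest on it.

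Rows without a symbol were set aside (1154 for density and 1233 for LPS). Gene cells were split on commas, and the row with the largest summed FPKM was kept per symbol. Background shares count each row once. List members joined with another gene in 1 row were left out. Starts were raised by 1 base to be 1-based. The step for 1 fragment was read in single-transcript GENCODE M21 genes of 1000 bases or more, and fragments per gene used its shortest RefSeq-linked coding transcript there. Intervals are exact binomial for ratios and exact Poisson for levels. Promoter windows come from RefSeq. Calculations used Python 3.11.15, pandas 2.3.3, numpy 2.4.6 and scipy 1.17.1, and were tested on simulated data.

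The 10 members and the pathway lists were chosen with earlier results of these data known. Named genes were the 10 members, up to 3 genes past 2-fold per list and comparison, and a few kinases fixed by name. The nearest 2 genes of each member past 2-fold, and genes marked as named after their values were seen, were added. Values of 2 of these pathway genes are not reported here. Alternatives were pseudocounts of 0.1 and 5, rescaling, centring, summed rows, other minimums and a 1.5-fold threshold.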

Additional observations from a re-analysis of the deposited data

How the results depend on the processing

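In 89 of 100 recomputed ratios of single genes, the log2 value moved by less than the wider side of its counting interval. Summing rows could move no ratio, as each member has a single row. Centring moved all ratios of a comparison alike. Wide intervals, such as that of Dusp10 for density, are hard to leave. Counts of members past 2-fold were within 1.5 times the main count under all alternatives other than a pseudocount of 5, which by construction shrinks ratios of low genes. There the count lower at high density was 0 (Dusp6 at -0.76 on the log2 scale), and with LPS 3 genes were higher (Dusp1, Dusp4 and Dusp16) and 0 lower. The shares of all genes also shrank, to 0.330% lower for density and to 4.32% higher and 2.19% lower for LPS. With a minimum of 5 FPKM, Dusp10 was no longer measured and 4 were higher with LPS, beside 8.85% of all genes. At 1.5-fold the members called were those called at 2-fold, 1 lower for density and, for LPS, 5 higher and 1 lower. Of all genes, 11.5% were then higher and 6.04% lower for density, and 19.0% and 16.02% for LPS. Dusp2 for density, with a log2 ratio of -0.580, lay just short of the 1.5-fold threshold. Its plain ratio of 0.629 was past it. After rescaling without the 20 highest genes, Dusp6 was the only member past 2-fold for density, while Dusp4 moved from 0.011 to -0.22 and Dusp16 from 0.29 to 0.080. Of 140 recomputed list medians, 6 moved by more than 0.25. With no minimum, the ERK-responsive median for density went from -0.57 to -0.042, and the scaffold medians from 0.36 to 0.085 for density and from 0.52 to 0.025 for LPS. The ERK-responsive median for LPS, 0.74, was 1.19 with a pseudocount of 0.1 and 1.06 with a minimum of 5 FPKM, at which that of MAP3 kinases went from -0.011 to 0.25. Rescaling moved each density median by less than 0.25, yet turned several from above to below 0. Other phosphatases of MAP kinases went from 0.044 to -0.19, and other dual-specificity phosphatases from 0.023 to -0.19. MAP2 kinases went from 0.22 to -0.017, MAP3 kinases and adaptors from 0.090 to -0.12, and kinases activated by MAP kinases from 0.16 to -0.068. No paired analysis was possible because each group has 1 library. Depth limits Dusp10 most, with about 15 fragments in each untreated column.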
